A study of Mus musculus with 34 samples.

Results

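The comparison described here is the change from stages IV-VI to stages VII-VIII of the seminiferous epithelial cycle within mouse tubules that carried a dominant negative retinoic acid receptor alpha (dnRARa). It rests on 4 of the 34 one-colour microarrays of the series, 2 of dnRARa tubules at stages IV-VI and 2 of dnRARa tubules at stages VII-VIII, chosen by the sample titles alone and paired by replicate number. The titles write the later stage group as VI-VIII and the source names write VII-VIII, and VII-VIII is used here. The tubules came from C57BL6/j mice 6 to 8 weeks old whose testes had been injected with lentivirus 5 days before the tubules were dissected. Tubules at the same stages from mice given the lentivirus labelled Venus (4 arrays) and from untreated mice (4 arrays) of the same strain and age serve as the controls. The labels name neither the promoter of the virus nor the cells it enters, so the share of cells in a tubule that carried dnRARa is not known, and they do not say how many mice gave tubules to a sample. The design text calls the samples of a group biological duplicates. With 2 arrays a group, the p-values below rest on differences between such duplicates only. In the main fit, the part of these differences shared by the stages of an arm was taken out as a replicate block. The spread that remained was pooled over all tubule groups and moderated across genes.

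Retinoic acid acts by binding receptors of the RAR family, which sit on DNA as partners of RXR receptors. A dominant negative RARalpha occupies that place without switching the target gene on. In the testis the cycle of the epithelium is divided into stages by the germ cells that lie side by side in 1 tubule segment. Retinoic acid signalling is known to be high around stages VII-VIII, where spermatogonia differentiate, preleptotene spermatocytes enter meiosis, elongated spermatids are released and new tight junctions form below the moving spermatocytes. Sertoli cells, the somatic cells that hold all of these germ cells, change the genes they express with the stage.

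All values are log2 processed signals minus the 75th percentile of the array, so that 0 is the level of a bright probe and 1 unit is a 2-fold step. Levels of different probes are not compared. On the 4 dnRARa arrays 60.6% to 73.9% of spots were well above background, the lowest share being that of replicate 2 of stages IV-VI, and over all 24 tubule arrays the share ranged from 54.9% to 74.4%. Each dnRARa replicate lay on 1 slide with both stages on it, so every dnRARa difference below rests on differences measured within 2 slides. In untreated tubules the stages lay on different slides, and there stage and slide cannot be told apart. No slide held arrays of more than 1 arm, so differences in level between arms cannot be told apart from slide. The untreated arrays were also scanned on another day than those of the virus arms.

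The level of Rara itself was measured first, because the virus was meant to add a form of this receptor. In dnRARa tubules Rara read -4.79 and -4.63 at stages IV-VI and -4.41 and -3.62 at stages VII-VIII. In Venus tubules it read -5.20 and -5.00, then -4.86 and -4.63. The dnRARa arrays lay above the Venus arrays at each stage. The gap was less than 1 unit in every same-numbered replicate except replicate 2 of stages VII-VIII. The dnRARa arrays also lay above the untreated arrays, where Rara was not well above background at either stage. The stage difference of Rara in dnRARa tubules was 0.69 (SE 0.31) and did not pass the test (adjusted p = 0.0945). Without replicate 1 of stages VII-VIII it was 1.11 with an adjusted p of 0.0402. The files do not say which part of the transcript the probe matches, so it is not known whether it reads the viral form.

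To show the kind of sequence on which the receptor acts, the promoters of 3 classical retinoic acid genes are printed from RefSeq (GRCm38.p6), each as the 250 bases before the transcription start, 5′ to 3′ on the strand of the gene. Capitals mark receptor half-sites. In Cyp26a1 (chr19:37697558-37697807, plus strand) and in Rarb (chr14:16575477-16575726, minus strand) they mark a pair of half-sites in direct repeat with 5 bases between them. In Stra8 (chr6:34920698-34920947, plus strand) they mark 2 copies of AGGTCA with no such repeat.
Cyp26a1: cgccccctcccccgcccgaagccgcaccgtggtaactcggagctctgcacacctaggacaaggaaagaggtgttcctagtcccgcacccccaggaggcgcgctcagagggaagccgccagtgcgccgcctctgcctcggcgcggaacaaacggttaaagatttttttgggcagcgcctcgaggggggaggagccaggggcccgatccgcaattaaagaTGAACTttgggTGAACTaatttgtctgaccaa
Rarb: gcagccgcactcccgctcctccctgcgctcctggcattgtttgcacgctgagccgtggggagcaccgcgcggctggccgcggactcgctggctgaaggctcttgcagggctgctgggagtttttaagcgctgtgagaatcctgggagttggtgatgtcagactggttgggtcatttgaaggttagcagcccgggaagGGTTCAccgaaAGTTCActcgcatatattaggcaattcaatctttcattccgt
Stra8: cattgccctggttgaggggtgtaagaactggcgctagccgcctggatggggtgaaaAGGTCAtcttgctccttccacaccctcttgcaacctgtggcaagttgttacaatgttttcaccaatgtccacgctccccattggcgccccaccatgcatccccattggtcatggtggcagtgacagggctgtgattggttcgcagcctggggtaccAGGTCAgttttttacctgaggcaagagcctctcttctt
The search used the half-site AGGTCA, its variant GGGTCA, its variant AGTTCA and the variant GGTTCA, on both strands. None of these is contained in another. A direct repeat of any of them with a 5-base spacer was found in 29 of 32851 promoter windows (0.0883%), and AGGTCA alone on either strand in 14.0% of them. Of the 28 genes with such a repeat, 4 could be tested in dnRARa tubules. Cyp26a1 and Tnfsf13b (1.04, adjusted p = 1.21e-05) were higher at stages VII-VIII, while Blvrb (-0.18) and Hbb-y (-0.15) did not pass the test. Of all genes tested 22.3% were higher and 19.6% lower, and 4 genes are too few to set against these shares. A match in these windows describes the sequence and does not show that a receptor bound there.

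The transcriptome of dnRARa tubules changed widely between the 2 stage groups. Of 21757 genes tested, 9115 (41.9%) passed the threshold, an adjusted p under 0.05 in limma's moderated test. Stages VII-VIII were higher for 4843 genes (22.3%) and lower for 4272 (19.6%). Which direction held more genes depended on the scaling. Quantile scaling gave 4521 higher and 4857 lower, and median scaling 4108 and 4715. In the main fit, at least a 2-fold difference was measured for 2980 genes (13.7%), 1939 higher (8.91%) and 1041 lower (4.78%). Of the 9115 genes, 9111 moved in the fitted direction within both slides, and 2 lacked a value on an array because a spot was marked as an outlier. The fitted difference is the mean of the differences on the 2 slides, so this agreement largely follows from the call. Without replicate 1 of stages IV-VI the count was 5818, and it was 5741 when only the 4 arrays entered the fit.

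Genes of the retinoic acid pathway were among those that changed with the receptor form present. Stra8, which preleptotene spermatocytes need to start meiosis, read 1.04 and 0.71 at stages IV-VI and 4.59 and 4.90 at stages VII-VIII. It rose by 3.87 (SE 0.44, adjusted p = 5.05e-05), a 14.6-fold difference with no overlap between the groups. In Venus tubules the same difference was 3.55 and in untreated tubules 4.43, and the dnRARa and Venus differences were 0.32 (SE 0.63) apart (adjusted p = 0.889). Cyp26a1, the enzyme that oxidises and so removes retinoic acid, was not well above background on either dnRARa array of stages IV-VI (-7.05 and -7.45) and read -3.83 and -4.28 at stages VII-VIII. Its rise was at least 4.03-fold, taken against the dimmest probes that the scanner software set clearly above background, with a fitted difference of 3.20 (adjusted p = 0.0013). After normexp background correction the difference of Cyp26a1 was 0.79 and no longer passed (adjusted p = 0.0745). In Venus tubules Cyp26a1 rose by 4.09, from -5.83 and -6.58 to -1.64 and -2.60, and in untreated tubules, where it was not well above background at stages IV-VI, at least 9.9-fold. At stages VII-VIII both dnRARa arrays lay below all 4 control arrays for this gene, whereas the stage differences of dnRARa and Venus were -0.89 (SE 0.86) apart with an adjusted p of 0.716. Rarb, another receptor gene that retinoic acid induces in many tissues, was not well above background at either stage in dnRARa tubules and was not tested.

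**Figure D1:**
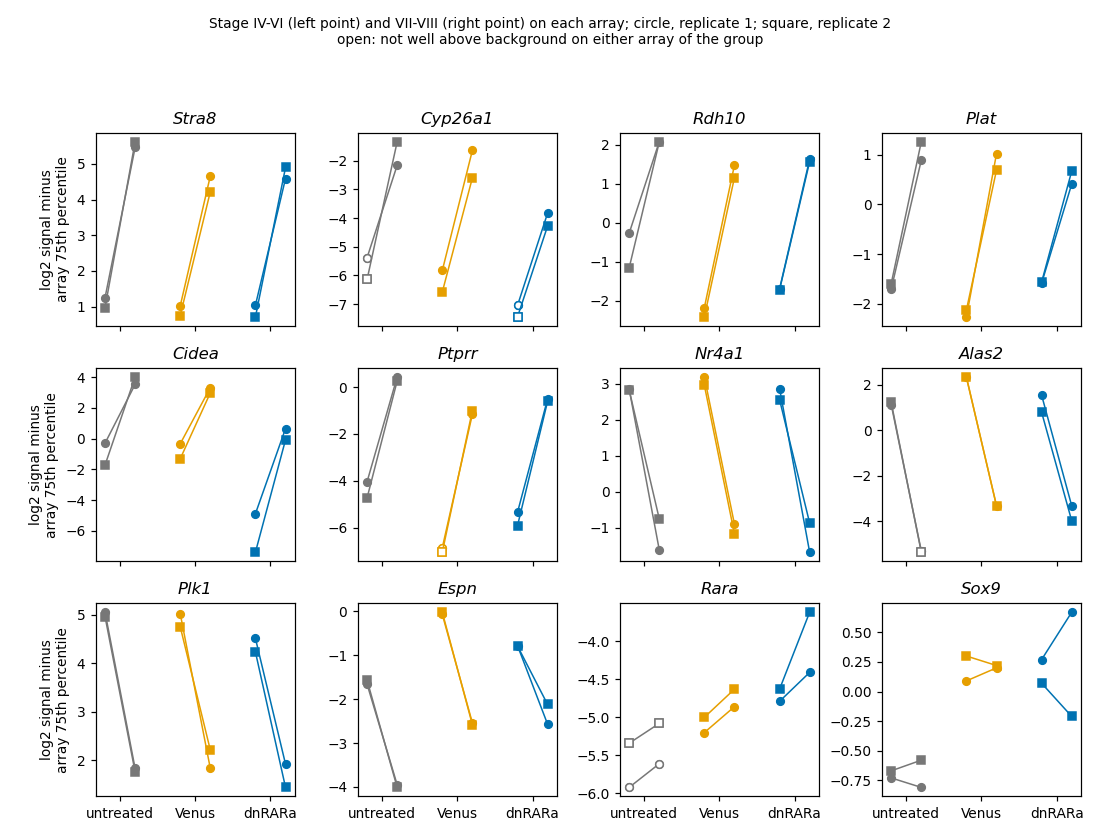
Log2 signal minus the array 75th percentile (vertical axis) of 12 genes on every array of stages IV-VI (left point) and VII-VIII (right point) in untreated, Venus and dnRARa tubules; lines join arrays with the same replicate number and open points are groups not well above background on either array. Stra8 and Rdh10 rose on both dnRARa slides, Nr4a1, Alas2 and Plk1 fell on both, and Sox9 rose on 1 and fell on the other.

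Of the list of 16 measured textbook retinoic acid targets, 11 could be tested in dnRARa tubules. Higher at stages VII-VIII were 3 (Stra8, Cyp26a1 and Nrip1) and lower were 3 (Cyp26b1, Dhrs3 and Rec8), against 22.3% and 19.6% of all genes tested. These 2 shares are the background for every list counted in dnRARa tubules, and 19.6% and 22.6% for those in Venus tubules. The median difference of the 11 was -0.19, beside 0.013 for all genes tested. Nrip1, a corepressor of nuclear receptors, read -1.53 and -1.25, then -0.58 and -0.30. Rec8, a cohesin subunit of meiotic chromosomes, read 5.48 and 5.53, then 4.62 and 4.21. Rec8 fell in all 3 arms, by 1.09 in dnRARa tubules, by 0.61 in Venus tubules and by 0.74 in untreated tubules.

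Enzymes and carriers of retinoids moved both ways. Of 18 tested, 5 rose and 6 fell in dnRARa tubules (22.3% and 19.6% of all genes), with a median difference of -0.18, and the smallest adjusted p of the difference between dnRARa and Venus among them was 0.323. Rdh10, which makes retinal from retinol in the step that limits retinoic acid synthesis, read -1.70 and -1.72 at stages IV-VI and 1.63 and 1.57 at stages VII-VIII. It rose by 3.31 (SE 0.31, adjusted p = 1.53e-05), beside 3.62 in Venus and 2.79 in untreated tubules. Bco1, which cleaves beta-carotene to retinal, rose by 0.90, and the retinal dehydrogenase Aldh8a1 rose by 0.71. In the other direction, Crabp1, a retinoic acid binding protein of spermatogonia, fell by 1.48 from -2.12 and -2.09 to -3.49 and -3.68. Aldh1a3, which makes retinoic acid, fell by 1.03, Dhrs4 by 1.35 and Dhrs3, which turns retinal back to retinol, by 0.92. Cyp26b1, the second retinoic acid degrading enzyme on the list, fell by 0.57, the opposite direction to Cyp26a1. The retinal dehydrogenases Aldh1a1 (-0.38, adjusted p = 0.121) and Aldh1a2 (0.32, adjusted p = 0.116) and the esterifying enzyme Lrat (-0.41, adjusted p = 0.149) did not pass the test.

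Among receptors and coregulators 2 of 11 rose and 4 fell, beside 22.3% and 19.6% of all genes. Rxra, the DNA-binding partner of RAR, read 0.41 and 0.54, then 2.20 and 2.24, and rose by 1.74 (SE 0.23). In Venus tubules it rose by 2.80 from a lower start (-0.75 and -0.52) to about the same end (2.11 and 2.22), and the 2 differences were -1.06 (SE 0.33) apart with an adjusted p of 0.169. Among those that fell were the corepressor gene Ncor1 (fell by 0.37), the coactivator gene Ncoa3 (fell by 0.58) and Rxrb (fell by 0.45). Ncoa3 did not pass without replicate 1 of stages IV-VI (-0.46, adjusted p = 0.133) or of stages VII-VIII (-0.38, adjusted p = 0.153).

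Among genes with a symbol, predicted genes and clone names left out, the 12 largest rises in dnRARa tubules were of genes that also rose in both control arms. Cidea, a protein of lipid droplets, read -4.88 and -7.38 at stages IV-VI and 0.65 and -0.08 at stages VII-VIII, a rise of 6.42 (SE 0.81, adjusted p = 9.68e-05). It started from -0.34 and -1.31 in Venus tubules and ended there at 3.31 and 2.97, so that the dnRARa arrays of each stage lay below the control arrays while the rise was larger in size. The difference between the arms in that rise, 2.45 (SE 1.16), did not pass the test (adjusted p = 0.387). Col15a1, a collagen of basement membranes, rose by 5.93, from -2.49 and -2.87 to 3.04 and 3.44. Unc93a rose by 5.89, from -4.51 and -5.03 to 1.08 and 1.15. In untreated tubules Unc93a started from 0.88 and 0.83, and its rise there was 2.32.

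The other large rises had roles as different as neurotransmitter synthesis and calcium export. Gad2, an enzyme that makes the transmitter GABA, rose by 5.29. Il22, a cytokine gene, was not well above background at stages IV-VI and rose at least 7.55-fold. The glycosyltransferase B4galnt4 rose by 5.17, Tex13c3 by 5.12, the receptor phosphatase Ptprr by 5.07, the plasma membrane calcium pump Atp2b2 by 5.03, the complexin Cplx4 by 4.96, the protease Prss52 by 4.89 and the membrane protein Tm4sf4 by 4.89. Ptprr read -5.35 and -5.92, then -0.51 and -0.61. Fitted Venus differences for the 12 largest rises lay between 3.09 (Tex13c3) and 6.81 (Unc93a), and fitted untreated differences between 2.32 (Unc93a) and 4.89 (Col15a1). All 12 passed the threshold in each arm, and for none did dnRARa and Venus differ at an adjusted p under 0.05.

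The 12 largest falls, by the same rule, were of genes that also fell in both control arms. Ssx9, Ssxb1 and Ssxb2, near-identical X-linked copies whose probes may read one another, fell by 5.89, 5.80 and 5.80. Ssxb1 read 2.64 and 2.23 at stages IV-VI and -2.97 and -3.76 at stages VII-VIII, a 55.7-fold difference. Alas2, the first enzyme of haem synthesis, fell by 4.81 (SE 0.14, adjusted p = 1.8e-08), from 1.53 and 0.78 to -3.33 and -3.99. Its fall was 5.65 in Venus tubules and at least 76.1-fold in untreated tubules, where it ended not well above background, and the 0.84 between dnRARa and Venus had an adjusted p of 0.0818. Nr4a1, an orphan nuclear receptor of the immediate early class, fell by 3.99, from 2.87 and 2.56 to -1.68 and -0.87, beside 4.11 in Venus and 4.02 in untreated tubules. Sostdc1, a secreted antagonist of BMP and Wnt ligands, fell at least 11.1-fold and Marveld3, a tight junction protein, at least 9.15-fold, both to levels not well above background. Chac1, a glutathione degrading enzyme, fell by 4.25, the receptor subunit Il20ra by 3.96, Limch1 by 3.93, Speer4b by 3.84 and Pkib, an inhibitor of protein kinase A, by 3.79. For these 12 the smallest adjusted p of the difference between dnRARa and Venus was that of Alas2.

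**Figure D2:**
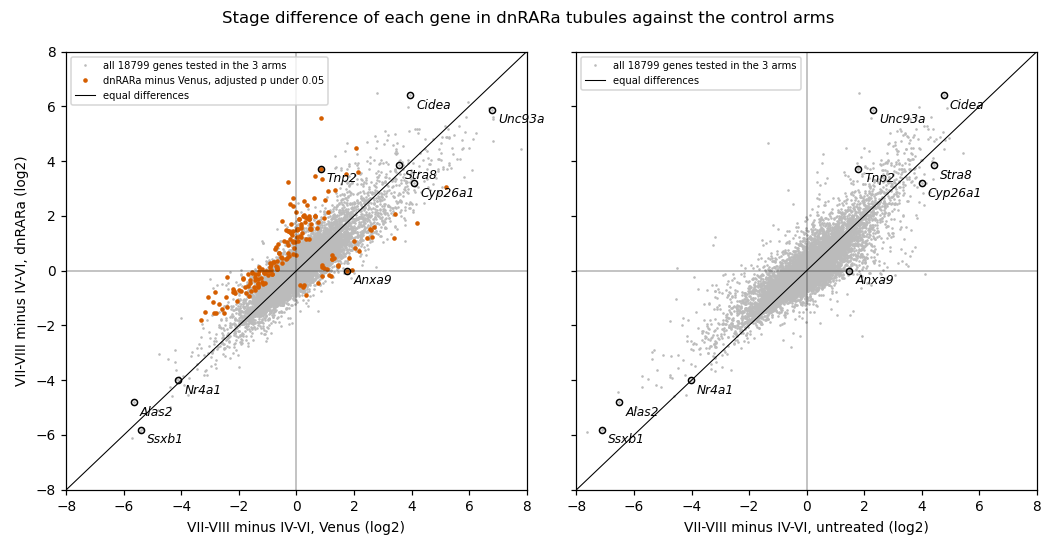
Stage difference (VII-VIII minus IV-VI, log2) of the 18799 genes tested in all 3 arms, dnRARa on the vertical axis against Venus (left) and untreated (right) on the horizontal axis; the line marks equal differences and orange points are genes whose dnRARa and Venus differences differed. Nr4a1 lies near the line in both panels (-3.99 against -4.11 and -4.02), while Tnp2 (3.73 against 0.84 in Venus tubules) lies far above it and Anxa9 (0.00 against 1.77) below.

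Sertoli cell genes were present in the tubules and changed as a mixed group. Sox9, a transcription factor that defines the Sertoli cell, read 0.27 and 0.07, then 0.67 and -0.21, a difference of 0.06 (adjusted p = 0.811). Without replicate 2 of stages VII-VIII the difference of Sox9 was 0.43 (adjusted p = 0.0289), and without replicate 1 it was -0.31 (adjusted p = 0.0892). Cldn11, the claudin of their tight junctions, read 1.23 and 1.45, then 1.63 and 1.67. The difference of 0.31 passed the test in the main fit (adjusted p = 0.0238) and missed it without each of 3 of the 4 arrays, with adjusted p-values from 0.0708 to 0.184. Of 26 Sertoli cell genes tested, 4 rose and 10 fell, where 22.3% and 19.6% of all genes did, with a median difference of -0.22, and 3 and 10 did so in Venus tubules, where the median was -0.23. The summed level of the list ran from 7.64 to 7.74 at stages IV-VI and from 7.37 to 7.51 at stages VII-VIII. In RNA of whole tubules, fewer cells of a type and less RNA per cell cannot be told apart.

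Products that Sertoli cells are known to make by stage moved both ways. Of 18 tested 4 rose and 5 fell, close to the 22.3% and 19.6% of all genes, and 5 and 5 did so in Venus tubules. Plat, the tissue plasminogen activator secreted at stages VII-VIII, read -1.58 and -1.56, then 0.41 and 0.67, and rose by 2.11 (SE 0.22, adjusted p = 2.64e-05). Venus tubules rose by 3.04 and untreated tubules by 2.72 for Plat, and the dnRARa difference was -0.93 (SE 0.31) from that of Venus (adjusted p = 0.202). Gata1, a transcription factor of Sertoli cells at these stages, rose by 0.77, from -1.68 and -1.70 to -1.0 and -0.84. In Venus tubules it reached 0.02 and 0.05, a rise of 1.90, and the difference between the arms of -1.13 (SE 0.23) had an adjusted p of 0.0508. Kitl, the ligand of the KIT receptor on spermatogonia, fell by 0.83, the inhibin subunit Inha by 1.01 and the water channel Aqp8 by 0.82. Inha fell by 0.31 in Venus tubules and differed by 0.01 in untreated tubules, where it did not pass the test. The cathepsin Ctsl, also known as a stage-dependent Sertoli cell product, differed by 0.07 (adjusted p = 0.52).

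Of 9 androgen-responsive Sertoli cell genes 3 rose and 2 fell, again beside 22.3% and 19.6% of all genes. Cldn3 rose by 1.37, from -2.71 and -2.94 to -1.34 and -1.57, Tubb3 by 1.14 and Drd4 by 0.98, while Gpd1 fell by 0.52 and Ndrg3 by 0.33. Cldn3 ended at 0.62 and 0.70 in Venus tubules, above both dnRARa arrays, after a rise of 2.12, and the difference of the 2 rises, -0.75 (SE 0.29), had an adjusted p of 0.279. Rhox5, the androgen-dependent homeobox gene, differed by -0.17 and did not pass.

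Genes of cell junctions moved both ways. Of 21 adhesion and other junction genes tested, 12 fell and 4 rose (19.6% and 22.3% of all genes), with a median of -0.39, and in Venus tubules 9 of 20 fell and 3 rose. Espn, an actin bundler of the junctions between Sertoli cells and spermatids, read -0.78 and -0.79, then -2.57 and -2.12, a fall of 1.56 (SE 0.13). The fall was 2.52 in Venus and 2.36 in untreated tubules, and Espn was 1 of the few list members whose dnRARa and Venus differences passed the test (0.96, SE 0.18, adjusted p = 0.04). The plakophilin Pkp2 fell by 0.88 and the focal adhesion gene Pxn by 0.94, whereas N-cadherin (Cdh2) rose by 2.14, from -2.64 and -2.44 to -0.08 and -0.72. Of 17 tight junction genes 3 rose (Cldn13 by 2.36, Cldn3 and Cldn11) and 4 fell (Marveld3, Jam2, Jam3 and Pard6b), shares near those of all genes (22.3% and 19.6%). Of 17 extracellular matrix genes 3 rose and 3 fell, with a median of -0.26, likewise no more than among all genes. Col18a1 rose by 2.25 and Nid1 by 1.56, while Sparc fell by 0.99 and Col1a2 by 0.65.

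Among secreted signals, 6 of 17 tested rose and 6 fell, where 22.3% and 19.6% of all genes did. Bmp8b and Bmp8a, BMP ligands of germ cells whose sequences are closely alike, so that their probes may read one another, rose by 3.98 and 3.09. Bmp8a read -4.37 and -4.32, then -1.19 and -1.33, with a rise of 3.17 in Venus and 2.98 in untreated tubules. The ERBB ligand Nrg3 rose by 3.24, and Wnt6 fell by 1.31. In the Notch pathway, 5 of 15 rose and 3 fell, against the same background of 22.3% and 19.6%. The receptor gene Notch1 rose by 2.44 and the ligand gene Dll1 by 2.03, while Notch4 fell by 1.55, beside falls of 1.54 in Venus and 1.51 in untreated tubules. Jag1, a Notch ligand, rose by 1.37 in dnRARa tubules, from -2.30 and -1.99 to -1.18 and -0.38. It differed by 0.20 in Venus and 0.27 in untreated tubules, neither of which passed, and the difference between dnRARa and Venus of 1.17 (SE 0.21) passed the test (adjusted p = 0.0344).

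Lipid and sterol genes gave a few large rises among many small changes. Insig1, the sterol-regulated retention protein of the endoplasmic reticulum, rose by 3.94, from -2.61 and -3.03 to 0.79 and 1.46, beside 2.13 in Venus and 1.76 in untreated tubules. Fdps and Cyp51, enzymes of cholesterol synthesis, rose by 1.89 and 1.80, and Pmvk by 1.05. Of 19 cholesterol genes 4 rose and 5 fell, shares near those of all genes (22.3% and 19.6%), with a median of -0.13. Sqle, Hsd17b7 and Srebf2 were among those that fell. The droplet coat gene Plin2 fell by 1.28, from 3.11 and 3.12 to 2.05 and 1.61. Of 24 lysosome and phagocytosis genes 2 rose and 3 fell, a share below the 41.9% of all genes. They were the engulfment gene Elmo1 (2.81) and the lipoprotein receptor Scarb1 (1.30), and Gas6 (-1.20), Axl (-0.70) and Ctsh (-0.71). Gas6 and Axl form a ligand and receptor pair.

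Most cell cycle genes fell. Of 26 cell cycle genes 17 fell and 3 rose, beside backgrounds of 19.6% and 22.3%, with a median of -0.45, and in Venus tubules 20 fell and 2 rose. Plk1, a kinase of mitosis and the meiotic divisions, read 4.51 and 4.23, then 1.92 and 1.44, and fell by 2.69 (SE 0.16, adjusted p = 1.29e-06). Ccnb1, the mitotic cyclin, fell by 1.95, and Ccna1, the cyclin of spermatocytes, by 1.81. The replication genes Mcm2 and Mcm3 fell by 0.99 and 1.08. The rises were of Ccne2 (0.97), Ccnd2 (0.69) and Pcna (0.56), and Ccnd2 did not pass without replicate 2 of stages IV-VI (0.56, adjusted p = 0.109) or of stages VII-VIII (0.42, adjusted p = 0.162). Aurka, Ccnd1 and Rrm2 did not pass the test in dnRARa tubules (0.34, 0.28 and -0.01) and fell in Venus tubules by 0.79, 0.50 and 0.96. These 3 of the 26 genes passed the test of the difference between dnRARa and Venus (adjusted p = 0.0477, 0.0495 and 0.0298), beside 0.850% of all genes. Against untreated tubules Ccnd1 passed that test (adjusted p = 0.0268), and Aurka (0.186) and Rrm2 (0.385) did not. Calls against Venus depended on single arrays, as given below.

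Of 17 early meiosis genes tested 3 rose, Stra8 among them, and 4 fell, near the background of 22.3% and 19.6%, with a median of 0.00. Sycp2 rose by 0.57 and Syce2 by 0.40, while Rec8 fell by 1.09, Tex15 by 1.07, Sycp1 by 0.76 and Hormad1 by 0.52. The difference of Hormad1 was -0.07 (adjusted p = 0.615) when its detected probes were averaged. Dmc1 (0.52, adjusted p = 0.126) and Spo11 (0.06, adjusted p = 0.679) did not pass. Sohlh2, a transcription factor of differentiating spermatogonia, fell by 1.67, from -0.15 and 0.09 to -1.91 and -1.49, beside 2.21 in Venus and 1.63 in untreated tubules. Gfra1, a marker of undifferentiated spermatogonia, rose by 0.88, and did not pass with its detected probes averaged (0.50, adjusted p = 0.302) or without the replicate block (adjusted p = 0.179). Kit (-0.25) did not pass the test. Among pachytene and later spermatocyte genes 3 of 17 rose (Ovol1, Terb1 and Piwil1) and 5 fell, beside 22.3% and 19.6% of all genes. Ccna1 and Mybl1 (-1.21) were the largest falls, and the median was -0.11.

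Genes of elongating spermatids held 2 members, Tnp2 and Prm1, whose stage change differed between dnRARa and Venus, beside 0.850% of all genes tested. Of 18 tested 7 rose and 3 fell in dnRARa tubules (22.3% and 19.6% of all genes), and 3 and 3 in Venus tubules (19.6% and 22.6%), with medians of 0.17 and -0.08. The difference between these counts was not tested. Tnp2, a transition protein that replaces histones before protamines do, read 3.25 and 3.09 at stages IV-VI and 6.60 and 7.20 at stages VII-VIII, a rise of 3.73 (SE 0.36, adjusted p = 1.75e-05). In Venus tubules it read 6.02 and 5.51, then 6.70 and 6.51, and in untreated tubules 4.46 and 3.57, then 5.63 and 6.00. The dnRARa arrays of stages IV-VI were the lowest of the 12 for Tnp2, and at stages VII-VIII dnRARa and Venus overlapped. Tnp1 rose by 2.16, from 6.19 and 6.31, and the protamine gene Prm1 by 1.71, from 6.75 and 6.18. The Venus arrays of stages IV-VI read 8.01 and 7.62 for Tnp1 and 8.10 and 7.81 for Prm1. The difference between dnRARa and Venus passed for Tnp2 (2.89, adjusted p = 0.0307) and Prm1 (1.91, adjusted p = 0.0247). It missed for Tnp1 (2.01, adjusted p = 0.0667). For Tnp2 it also missed without the detection filter (adjusted p = 0.0686) and with most single virus-arm arrays left out. Against untreated tubules Tnp2 missed (1.93, adjusted p = 0.066) and Prm1 passed (1.52, adjusted p = 0.0259). The other protamine, Prm2, differed by -0.02, and the linker histone H1f7 rose by 1.07. Of 17 round spermatid genes 2 rose and 4 fell, beside 22.3% and 19.6% of all genes, with differences from -0.75 to 0.46.

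**Figure D3:**
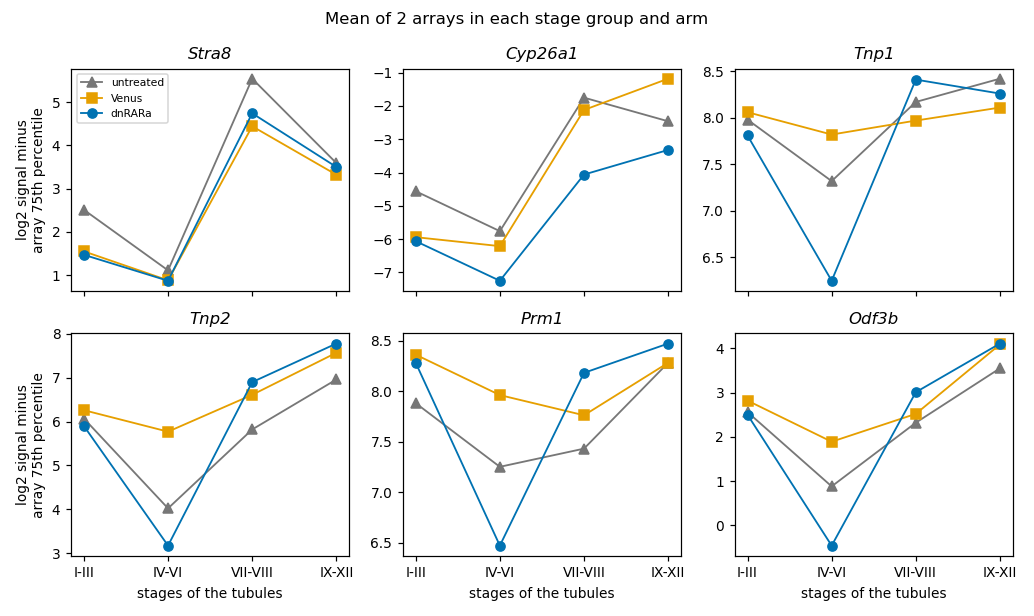
Mean log2 signal minus the array 75th percentile (vertical axis) of 2 arrays in each of 4 stage groups (horizontal axis) and 3 arms. Tnp2 and Odf3b dip at stages IV-VI in every arm and lowest in dnRARa tubules (3.17 and -0.46), while Stra8 follows nearly the same course in Venus and dnRARa tubules; Cyp26a1 at stages IV-VI of dnRARa and untreated tubules was not well above background.

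Counts of markers of other cell types stand here beside the 22.3% higher and 19.6% lower of all genes. All 11 Leydig cell markers tested but Cyp2a4 had negative differences in dnRARa tubules, with a median of -0.82, and 2 fell, Hsd3b1 (-1.22) and Hsd3b6 (-1.51), which are close paralogs. Their summed level was 4.92 and 4.95 at stages IV-VI and 3.61 and 4.64 at stages VII-VIII. Hsd3b1 missed the threshold whichever of the 4 arrays was left out (adjusted p from 0.0551 to 0.249). Hsd3b6 missed it without replicate 1 of stages IV-VI (-1.10, adjusted p = 0.191) or of stages VII-VIII (-1.02, adjusted p = 0.198). In Venus tubules Hsd3b1 (-0.92, adjusted p = 0.102) and Hsd3b6 (-0.60, adjusted p = 0.326) did not pass, and the median of the list was -0.48. Insl3, the hormone that defines Leydig cells, differed by -0.83 in dnRARa tubules (adjusted p = 0.0591). Of the 11 macrophage and immune markers tested 1 rose (H2-Ab1, 0.49) and 2 fell (Mrc1, -0.88, and C1qc, -0.61), no more than among all genes. Their summed levels ran from 3.25 to 3.44, then from 2.80 to 3.34. Of the 9 peritubular myoid markers tested 2 rose (Actg2, 0.60, and Acta2, 0.54) and 3 fell (Tagln, Myh11 and Des). Their summed level went from 4.77 and 4.90 to 5.02 and 5.28. Acta2 was -0.13 when the mean of its detected probes was used. Acta2, Tagln, H2-Ab1 and C1qc each missed the threshold without each of 3 of the 4 arrays, with adjusted p-values from 0.0622 to 0.344, 0.120 to 0.359, 0.123 to 0.227 and 0.0651 to 0.372, and Myh11 without replicate 1 of either stage (0.279 and 0.312). Of the 8 endothelial markers tested Vwf rose by 0.88 and Kdr fell by 1.43. The erythroid list held Alas2 and Klf1, which rose by 2.04, while the haemoglobin gene Hba-a1 differed by -0.14 and did not pass. The part that cells other than those of the epithelium had in the stage differences was not tested.

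**Figure D4:**
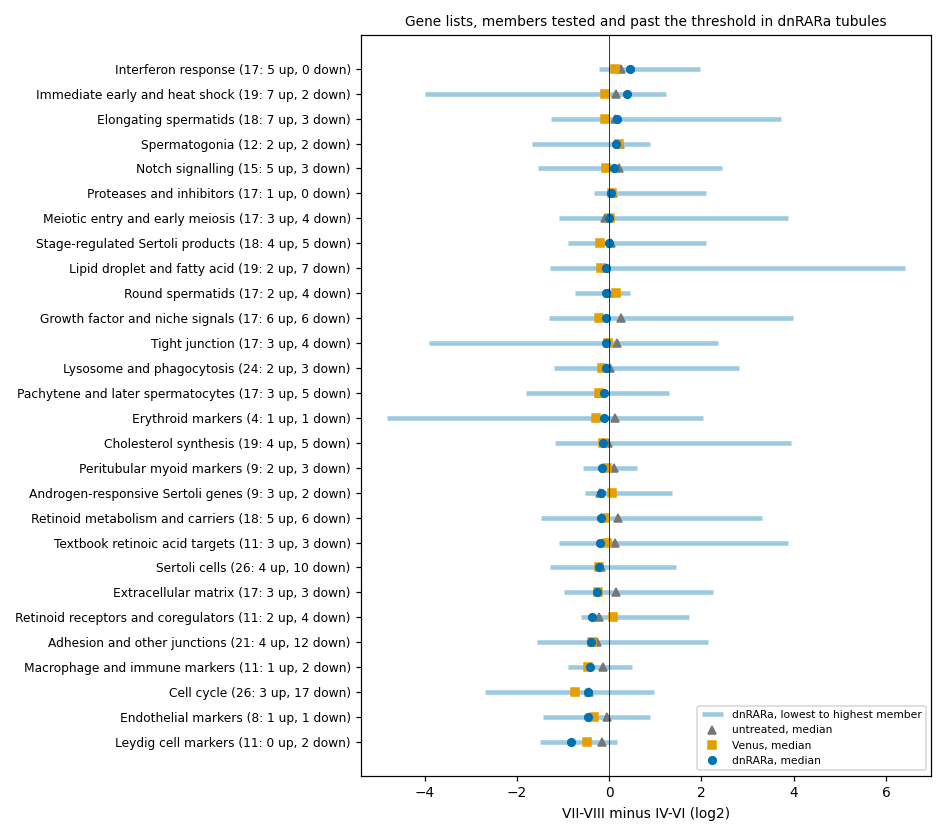
Stage difference (log2, horizontal axis) of 28 gene lists, with the range of members tested in dnRARa tubules as a bar and the median in each arm as a symbol; labels give the members tested and those higher and lower in dnRARa tubules. Medians lie between -0.82 (Leydig cell markers) and 0.46 (interferon response) in dnRARa tubules.

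Immediate early and interferon genes were examined because a virus had been injected. Of 19 immediate early and heat shock genes 7 rose and 2 fell (22.3% and 19.6% of all genes), with a median of 0.39, and in Venus tubules 4 of 18 rose and 4 fell (19.6% and 22.6%) with a median of -0.08. Dusp1 (1.23) and Hspa1a (1.21) rose in each arm. Of 17 interferon response genes 5 rose and 0 fell (22.3% and 19.6% of all genes), and the lowest difference in the list was -0.22. Among them were Ddx58 (1.98), Oasl2 (0.79), B2m (0.77) and H2-D1 (0.56), while Isg15 (0.45) and Irf7 (0.35) did not pass. Without replicate 2 of stages VII-VIII Oasl2 (0.49, adjusted p = 0.289) and B2m (0.61, adjusted p = 0.0508) did not pass, and Oasl2 also missed without either array of stages IV-VI (adjusted p = 0.151 and 0.102). Ddx58 and Oasl2 rose in Venus and untreated tubules as well, by 1.39 to 2.30 in Venus tubules. The smallest adjusted p of the difference between dnRARa and Venus was 0.110 in the immediate early list and 0.252 in the interferon list.

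The question of which stage changes occur with the receptor form present was read from genes chosen by their change in untreated tubules. The untreated arrays are not those of the virus arms, but the spread of each gene was pooled over all 24 tubule arrays. The calls of the arms are therefore not independent. With each arm fitted on its own arrays, 4880 of 6091 untreated stage genes were also called in dnRARa tubules. With only the groups compared, 3960 of 6330 were. Untreated tubules changed between the stages for 10181 of 19180 genes (53.1%), 5311 higher (27.7%) and 4870 lower (25.4%). Venus tubules changed for 9858 of 23347 genes (42.2%), 4575 higher (19.6%) and 5283 lower (22.6%). Of the 5244 genes higher in untreated tubules and tested in all arms, 3590 (68.5%) also rose in dnRARa tubules and 3484 (66.4%) in Venus tubules. Of the 4770 lower genes, 3260 (68.3%) also fell in dnRARa and 3655 (76.6%) in Venus tubules. In the 18799 genes tested in all arms the shares called in dnRARa tubules were 23.7% higher and 22.0% lower. In Venus tubules these shares were 22.2% and 26.0%, so falls were more often called there among all genes as well. In dnRARa tubules the sign was the same for 92.8% of the higher and 94.8% of the lower genes. There, 41 and 33 genes passed the threshold in the opposite direction.

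The size of the change followed the untreated size in both virus arms. Among genes at least 2-fold higher in untreated tubules, 1536 of 1791 (85.8%) rose in dnRARa tubules, with a median of 1.38, and 86.0% in Venus tubules, with a median of 1.50. Among those at least 2-fold lower, 1186 of 1465 (81.0%) fell, with a median of -1.08, and 82.9% in Venus tubules, with a median of -1.18. Of 31 genes whose untreated rise was 4 units or more, 96.8% rose in each virus arm. Of the 7139 genes that changed alike in untreated and Venus tubules, 5881 passed in the same direction in dnRARa tubules. Of the 1256 that did not pass, 1140 had the same sign, their Venus differences were smaller (median size 0.58 against 0.90), and 37 differed between dnRARa and Venus.

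**Figure D5:**
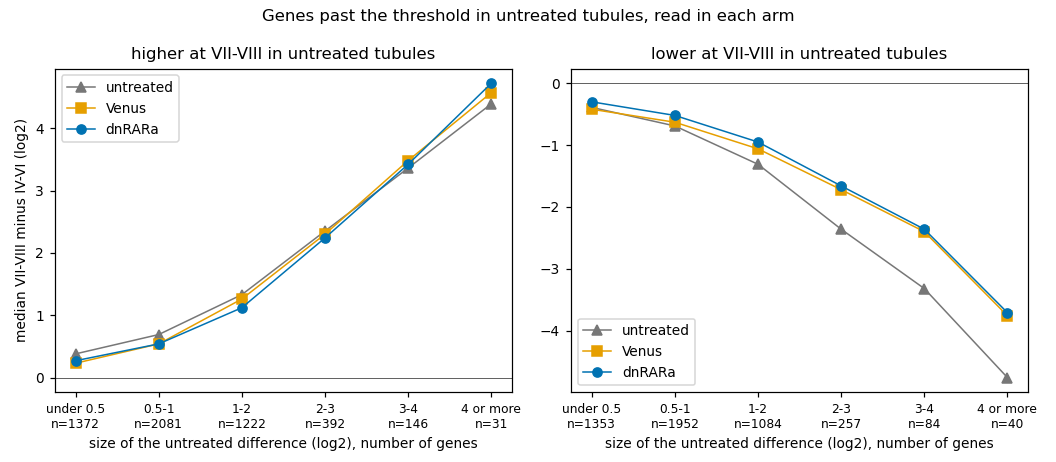
Median stage difference (log2, vertical axis) in each arm of genes called in untreated tubules, binned by the size of the untreated difference (horizontal axis, with the number of genes). Among rises the dnRARa and Venus medians run from 0.27 and 0.23 in the smallest bin to 4.72 and 4.57 in the largest. Among falls they run from -0.30 and -0.42 in the smallest bin to -3.71 and -3.76 in the largest. The untreated values chose the genes.

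Calls in the arms, which share the pooled spread of each gene, overlapped in both directions. Of 8576 genes called in dnRARa tubules and tested in all arms, 6581 were called the same way in Venus tubules, which is 76.7% of the dnRARa calls and 72.7% of the Venus calls, and 24 the opposite way. The overlap with untreated tubules was 6850 genes, 79.9% of the dnRARa calls and 68.4% of the untreated calls. Across these genes, which are not independent replicates, the dnRARa differences correlated with those of Venus at r = 0.882 and with those of untreated tubules at r = 0.854.

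The test of the difference itself, the stage change in dnRARa minus that in Venus tubules, passed for 200 of 23523 genes (0.850%), 165 with a more positive change in dnRARa (0.701%) and 35 with a more negative one (0.149%). With normexp correction the split was 161 and 65. Against untreated tubules 776 of 22120 genes (3.51%) passed, 474 positive (2.14%) and 302 negative (1.37%). The count against Venus depended on each array. It was 16 without either Venus array of stages IV-VI, 13 and 6 without replicates 1 and 2 of Venus stages VII-VIII, 103 and 13 without those of dnRARa stages IV-VI, and 411 and 32 without those of dnRARa stages VII-VIII. Without the replicate block it was 76, with all arrays of the 2 virus arms alone 636, and with the 8 arrays of the 4 groups alone limma called 0, where 3067 genes had an unadjusted p under 0.05. The count against untreated tubules was 410 without untreated replicate 1 of stages IV-VI, 297 and 266 without replicates 1 and 2 of dnRARa stages IV-VI, and 510 without replicate 2 of dnRARa stages VII-VIII.

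The 165 genes with the more positive change in dnRARa tubules had median differences of 0.62 there, -0.60 in Venus and -0.07 in untreated tubules. At stages IV-VI the mean level of 156 of them was lower in dnRARa than in Venus tubules, and at stages VII-VIII that of 162 was higher. The dnRARa and Venus values on these arrays chose the genes. The order of their medians and levels in the 2 arms therefore follows largely from that choice. The median gaps were -0.82 and 0.47, and the gap between the arms was larger at stages IV-VI than at VII-VIII for 114. Among the 6 genes with a symbol and the largest difference, after Tnp2, were Odf3b, a relative of a sperm tail protein, which rose by 3.47 from -0.08 and -0.84 to 2.76 and 3.27, and Calml4, which rose by 2.43 from -4.20 and -4.48 to -2.28 and -1.52. Venus tubules read 1.98 and 1.79, then 2.53 and 2.50, for Odf3b. Cyp2a12 rose by 2.66 and the sulfotransferase Chst8 by 2.26, with Venus differences of -0.13 and -0.59 that did not pass. Rgs17, a regulator of G protein signalling, fell at least 10.7-fold in Venus tubules, to a level not well above background, and was well above background on only 1 array of each stage in dnRARa tubules, where it was not tested.

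The 35 genes with the more negative change had median differences of 0.26 in dnRARa, 1.43 in Venus and 0.83 in untreated tubules. The dnRARa and Venus values chose these genes as well. Anxa9, an annexin, read -2.15 and -2.29, then -2.05 and -2.40, in dnRARa tubules, a difference of 0.00 (SE 0.20, adjusted p = 0.997). It rose by 1.77 in Venus and 1.48 in untreated tubules, to levels above all 4 dnRARa arrays, and the arms differed by -1.77 (SE 0.28, adjusted p = 0.0213). Mlxipl, a glucose-responsive transcription factor, differed by -0.18 (adjusted p = 0.485) in dnRARa tubules and rose by 1.19 in Venus and 0.67 in untreated tubules. Grin2c, a glutamate receptor subunit, rose in all arms, by 1.24 in dnRARa, 2.62 in Venus and 2.94 in untreated tubules, and its dnRARa arrays of stages VII-VIII (-2.35 and -2.64) lay below all 4 control arrays. Actn3 rose by 1.18 in dnRARa, 3.38 in Venus and 1.89 in untreated tubules. Tafa2 rose by 1.76 in dnRARa tubules, at least 9.67-fold in Venus tubules and at least 3.67-fold in untreated tubules. With normexp correction the fitted difference of Tafa2 between dnRARa and Venus was -0.43 (adjusted p = 0.74). The Venus arrays of Actn3 and Tafa2 started lower than their dnRARa arrays at stages IV-VI, where Tafa2 was not well above background in Venus tubules. Actn3 did not pass in dnRARa tubules without replicate 2 of stages IV-VI (1.12, adjusted p = 0.0604) or of stages VII-VIII (1.09, adjusted p = 0.0644). Rapgef5 did not pass in dnRARa tubules (0.47, adjusted p = 0.0642) and rose by 1.83 in Venus and 0.60 in untreated tubules. Against untreated tubules the dnRARa stage change of Anxa9 and Grin2c passed the test of the difference. Mlxipl, Actn3, Tafa2 and Rapgef5 did not pass it (adjusted p = 0.112, 0.44, 0.906 and 0.86). Each of the 12 genes named from this test passed it in 7 to 17 of 23 settings. These include the main fit, which chose the genes, and the deposited series values and the 2-fold minimum, which repeat its values. Passes in those settings were fixed in advance. Of the 12 genes, 2 passed with no detection filter, 6 with slide as a fixed block and 0 with only the groups compared. Most of the 12 also missed the threshold with 1 virus-arm array left out, except without replicate 1 of dnRARa stages VII-VIII.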

How the data were processed

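RNA of staged mouse tubules was hybridised in 1 colour (Cy3) to Agilent arrays of 45018 spots. The deposited files hold spot intensities from Agilent Feature Extraction 9.5.3.1, per the file headers (9.5 per the submitters' processing notes), background-subtracted by that software, with the deposited marks for spots above background, saturated or outlying. The deposited series table holds the same intensities. Control and outlier spots were left out, spots of a probe averaged, log2 taken and each array's 75th percentile subtracted. The probe with the highest mean stood for a gene. Probes were named through RefSeq accessions (22951) or symbols (67), and 18156 kept the file's name. The analysis used limma 3.58.1 in R 4.3.3 on 24 tubule arrays (12 groups, replicate number within arm as a block), with moderated two-sided tests and Benjamini-Hochberg adjustment over all genes tested. Genes entered a test if some group in the comparison had the probe clearly above background on its 2 arrays. The number of arrays limits the precision.

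The comparison follows the replicate numbers, which mark shared slides in the virus arms per the file headers. Deviations of same-numbered dnRARa samples correlated at 0.34 to 0.68 over 15838 genes, those of Venus at 0.02 to 0.46 and those of untreated tubules at 0.28 to 0.73. The genes named are Stra8, Cyp26a1, Rarb, Rara, Sox9 and Cldn11, the 12 largest rises and falls that moved alike in both pairs (genes with a symbol, predicted genes and clone names left out), the 4 or fewer list members ranked first by adjusted p, and 6 in each direction of the dnRARa minus Venus test. Other list members and Tnfsf13b, Blvrb and Hbb-y were named after their values were seen. A few list members are counted but not reported by name here. Members and the 28 lists were chosen with earlier results of these data known. The fit was tested on simulated data with 200 changed genes, where it recovered 72% at 2-fold and 90% at 4-fold in the dnRARa comparison. Far fewer genes changed there than the 9115 called in the real comparison, so these rates do not carry over to it. Alternatives varied scaling, background correction, the detection filter, probe choice, blocks, the arrays fitted, the prior, the threshold and each array in turn.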

Additional observations from a re-analysis of the deposited data

Results flagged for a closer look

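The change from stages IV-VI to VII-VIII differed between dnRARa and Venus tubules for 12 named genes, by limma's test of the difference itself (fitted log2 values, dnRARa minus Venus). Those of Rgs17 and Tafa2 rest on Venus arrays not well above background at 1 stage, so that their size has no exact value. More positive in dnRARa tubules were Tnp2 (2.89), Chst8 (2.85), Odf3b (2.84), Rgs17 (2.84), Cyp2a12 (2.79) and Calml4 (2.67). More negative were Tafa2 (-2.42), Actn3 (-2.20), Anxa9 (-1.77), Grin2c (-1.38), Mlxipl (-1.37) and Rapgef5 (-1.37). In the same test against untreated tubules, Tnp2, Mlxipl, Actn3, Rapgef5 and Tafa2 did not pass (adjusted p = 0.066, 0.112, 0.44, 0.86 and 0.906). The other named genes did. Of 23 settings, Rgs17 passed in 17, Odf3b in 16, Calml4 and Cyp2a12 in 15, Anxa9 and Tnp2 in 14, Actn3 and Grin2c in 12, Mlxipl in 11, Chst8 and Rapgef5 in 10 and Tafa2 in 7. These counts include the main fit, which chose the genes. The settings with the deposited series values and with a 2-fold minimum repeat its values, so passes there were fixed in advance. With only the groups compared 0 of the 12 passed. Most also missed the threshold with 1 virus-arm array left out, except without replicate 1 of dnRARa stages VII-VIII. Chst8, Rgs17 and Tafa2 had no value where detection was required on every array. The sign held wherever a value was given, with Tafa2 ranging from -2.80 to -0.43 and Rgs17 from 0.80 to 3.28.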

How the results depend on the processing

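The counts of genes past the threshold depended on the design more than the direction of named genes did. With at least a 2-fold difference required, the counts were 2980 in dnRARa, 3524 in Venus and 3406 in untreated tubules, 491 for dnRARa minus untreated, and 2029 for untreated stage genes also called in dnRARa. Fitting only the groups compared gave 5741 in dnRARa, 6495 in untreated tubules and 3960 shared, and limma called 0 genes for both differences between arms, where 3067 (Venus) and 2636 (untreated) had an unadjusted p under 0.05. Fitting only the arms compared gave 6226 in untreated tubules, 636 for dnRARa minus Venus and 232 for dnRARa minus untreated. Dropping the replicate block gave 6897, 7767 and 8165 in the 3 arms, 76 and 255 for the differences from Venus and untreated tubules, and 5275 shared. Slide as a fixed block gave 59 for dnRARa minus Venus, and as a random block 87, with 237 for dnRARa minus untreated. A fixed slide block was not run for results with untreated tubules, where slide and stage coincide. With no detection filter the differences counted 28 and 372. Requiring detection on every array gave 363 for dnRARa minus Venus, an intensity trend 435, and normexp correction 1190 for dnRARa minus untreated. Leaving out 1 array gave 5818 to 7316 in dnRARa, 7051 to 7281 in Venus and 7744 to 8967 in untreated tubules, 6 to 411 for dnRARa minus Venus, 266 to 960 for dnRARa minus untreated, and 4789 to 6153 shared. The cause was not tested. Of 128 named genes tested in dnRARa tubules, Acta2 reversed (-0.13, probes averaged) and 7 to 12 lost their call with 1 array left out. Of the same 128 genes, 15 lost their call when only the groups compared were fitted, and 41 when at least a 2-fold difference was required. Genes not well above background have only a bound.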
